A study of Mus musculus with 16 samples.

Results

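The 9 genes described here, Glul, Oat, Rhbg, Slc1a2, Axin2, Lgr5, Tbx3, Rnf43 and Znrf3, are targets of WNT signaling that mark hepatocytes next to the central vein of the liver lobule, and they were taken by symbol from a table of 50559 gene symbols. All 9 were listed in the table and all 9 passed the filter on low counts. RNA was sequenced from 16 livers of male C57BL/6J mice in 4 groups of 4, which differed in diet and in how ketohexokinase (KHK), the enzyme that phosphorylates fructose, was targeted. The LFD group, called chow in the labels, received a low-fat diet, luciferase control siRNA at 10 mg/kg and methylcellulose gavage. The HFD group received a high-fat diet with the same control siRNA and gavage. The HFD + siRNA group received a high-fat diet, GalNAc-conjugated siRNA against Khk at 20 mg/kg, which is taken up by hepatocytes, and methylcellulose gavage. The HFD + Inhib group received a high-fat diet, control siRNA and the small molecule KHK inhibitor PF-06835919 at 15 mg/kg by gavage, 2 times a day. Mice were bought at 6 weeks of age, stayed on the diets for 10 weeks and were treated during the last 4 of these weeks, with siRNA given every 2 weeks, so every mouse was injected with an siRNA and gavaged. Per the study's methods, mice also received saline or insulin through the vena cava 10 minutes before the tissue was taken, and which of them the 16 libraries come from is not stated in the labels. Library totals ranged from 24317111 to 35820234 expected counts, and the 4 group medians lay between 26714482 (HFD) and 30485808 (HFD + siRNA). Nothing in the labels describes the replicates beyond separate samples, so p-values measure the spread between these libraries.

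In the liver lobule blood flows from the portal vein to the central vein, and hepatocytes along this path express different genes, a pattern called zonation. Endothelial cells of the central vein secrete WNT ligands and the WNT amplifier R-spondin 3, which stabilize beta-catenin in the neighboring hepatocytes and let it activate transcription with TCF/LEF factors. Glutamine synthetase, encoded by Glul, is the classic product of this program and fixes the ammonia that escapes urea synthesis upstream. Some targets act back on the pathway: AXIN2 promotes the destruction of beta-catenin, RNF43 and ZNRF3 remove WNT receptors from the cell surface, and LGR5 binds R-spondins and counteracts this removal.

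RefSeq promoter windows (mouse build GRCm38.p6) were found for 5 of the 9 genes, Glul, Oat, Slc1a2, Axin2 and Rnf43, the last with 2 windows. The 250 bases before the annotated start were searched on either strand for CTTTGA and CTTTGT, letters of the core that TCF/LEF factors bind. At least 1 of the 2 motifs was present in 27.6% of 32851 mouse promoter windows of this length (CTTTGA in 13.8% and CTTTGT in 16.5%). Among the 6 windows of the WNT target genes, only that of Slc1a2 held a match, CTTTGA once in each orientation, starting 206 and 77 bases before the start of the gene. The windows of the 3 genes that rose on the high-fat diet are shown 5′ to 3′ on the strand of the gene, with matches in capitals; they lie at chr2:102706188-102706437 (plus strand) for Slc1a2, chr1:153899679-153899928 (plus strand) for Glul and chr7:132576399-132576648 (minus strand) for Oat.
Slc1a2: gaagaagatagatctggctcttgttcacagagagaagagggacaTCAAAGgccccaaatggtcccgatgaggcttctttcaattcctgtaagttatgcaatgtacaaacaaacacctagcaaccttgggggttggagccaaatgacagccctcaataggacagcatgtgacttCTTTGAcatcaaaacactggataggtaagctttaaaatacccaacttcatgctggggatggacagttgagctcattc
Glul: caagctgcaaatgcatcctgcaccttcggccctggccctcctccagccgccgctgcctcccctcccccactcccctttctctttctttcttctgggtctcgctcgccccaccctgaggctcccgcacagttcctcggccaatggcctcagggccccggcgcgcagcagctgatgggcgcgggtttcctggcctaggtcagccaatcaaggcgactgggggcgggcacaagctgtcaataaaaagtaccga
Oat: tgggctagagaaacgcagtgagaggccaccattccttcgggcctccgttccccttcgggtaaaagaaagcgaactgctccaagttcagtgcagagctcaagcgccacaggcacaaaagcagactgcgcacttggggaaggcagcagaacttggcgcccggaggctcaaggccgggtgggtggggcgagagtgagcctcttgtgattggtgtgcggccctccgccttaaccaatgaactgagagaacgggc

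The target of both treatments was examined first. Khk measured 213.9, 233, 349 and 269 CPM (reads scaled to a common library size, corrected by TMM) in the 4 LFD libraries and 250.7, 322, 233 and 250.6 CPM in HFD. It measured 11.8, 9.14, 18.1 and 11.5 CPM in HFD + siRNA, a log2 fold change against HFD of -4.38 ± 0.23 (SE; adjusted p = 1.9e-08, edgeR quasi-likelihood test with Benjamini-Hochberg adjustment over 18335 genes, as for every adjusted p here). It measured 112, 152, 94.6 and 120.5 CPM in HFD + Inhib, a log2 fold change of -1.14 ± 0.20 (adjusted p = 7.5e-04). Every HFD + siRNA library was below every HFD + Inhib library, and these were below every LFD and HFD library. In RNA from whole liver a lower level of a pericentral gene can mean fewer cells that express it or less RNA per cell, and the 2 cannot be told apart.

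The high-fat diet raised 3 of the 9 genes (18.4% of all tested genes were called, 9.58% higher and 8.80% lower), all with roles in nitrogen handling: Glul, Oat (ornithine aminotransferase, a mitochondrial enzyme that links ornithine to glutamate and proline) and Slc1a2 (the glutamate transporter GLT-1). These 3 were 2.15- to 2.48-fold higher in HFD than in LFD. The inhibitor lowered 4 of the 9 genes against HFD (18.2% of all tested genes were called, 9.80% higher and 8.42% lower), Slc1a2, Lgr5, Rnf43 and Znrf3, and the last 3 of these encode proteins that act at the WNT receptor. The siRNA left all 9 short of the threshold in the edgeR fit of all 4 groups without a replicate block (11.7% of all tested genes were called, 5.20% higher and 6.55% lower). Still, Glul was lower and Oat higher in each HFD + siRNA library than in any HFD library, as 20.6% of all tested genes differed without overlap. Oat passed with these 2 groups fitted alone, and Glul with the replicate block. Tbx3, a T-box transcription factor, passed the threshold in none of the 6 comparisons of groups.

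**Figure D1:**
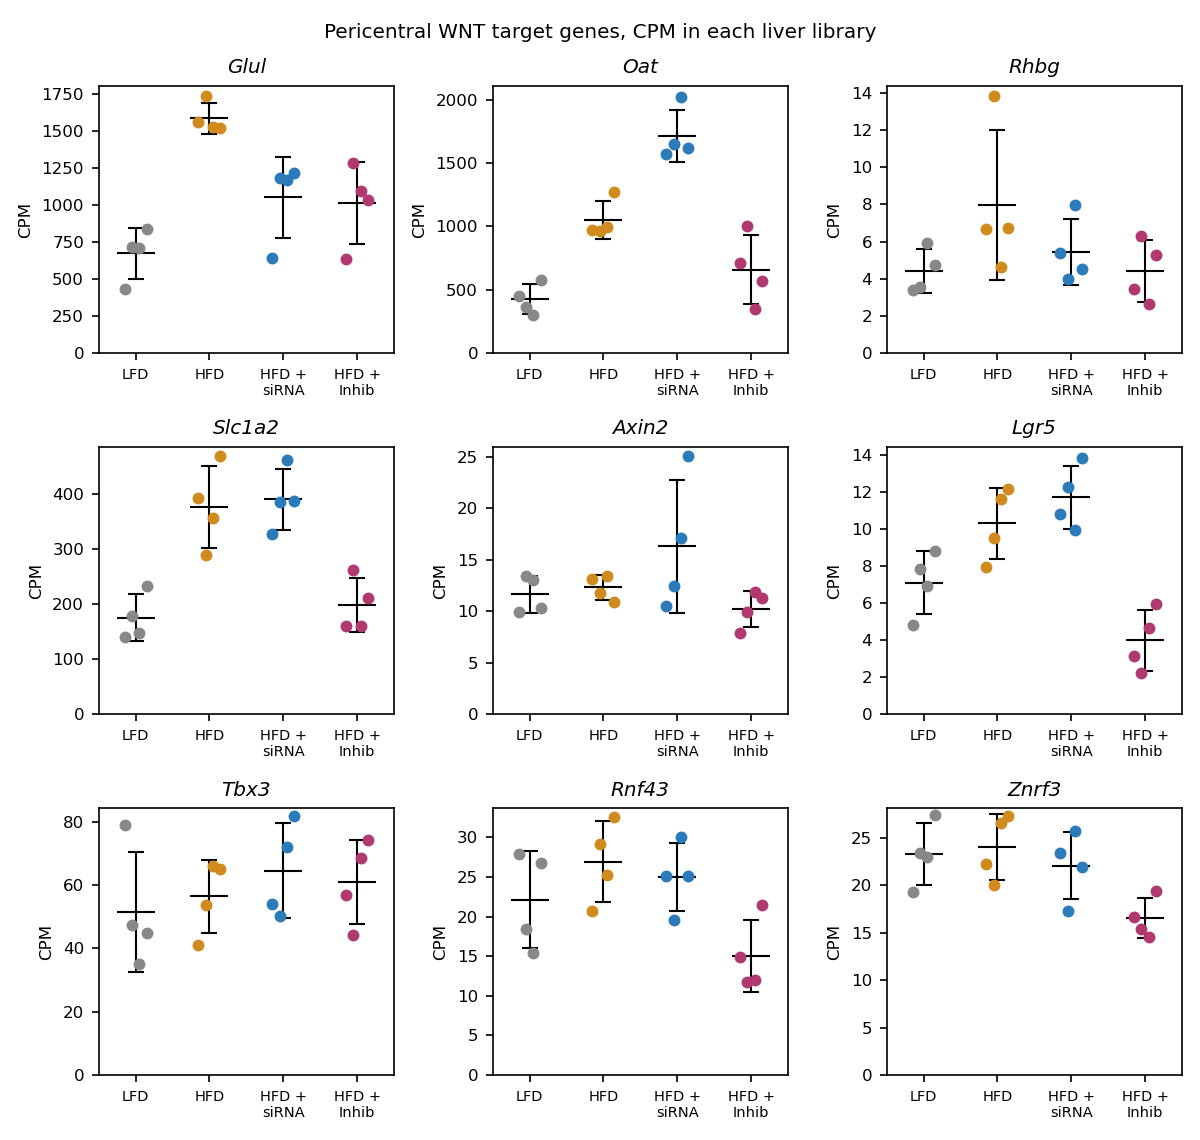
CPM of the 9 WNT target genes (y axes, from 0, one panel per gene) in each of the 16 liver libraries (points, 4 per group), with the mean (long dash) and SD (bars). Glul is highest in the 4 HFD libraries, Oat in the 4 HFD + siRNA libraries, and the 3 lowest Lgr5 values are HFD + Inhib libraries.

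The comparison of HFD with LFD asks what the diet alone did. Glul measured 431, 716, 711 and 838 CPM in LFD and 1559, 1738, 1525 and 1518 CPM in HFD. The groups did not overlap, and the log2 fold change was 1.23 ± 0.23 (adjusted p = 0.00243). Oat measured 454, 364, 302 and 574 CPM in LFD and 969, 965, 999 and 1276 CPM in HFD. The lowest HFD library was again above the highest LFD library, with a log2 fold change of 1.31 ± 0.25 (adjusted p = 0.00256). Slc1a2 measured 140.0, 179, 147 and 234 CPM in LFD and 393, 289.6, 357 and 469 CPM in HFD. Its groups did not overlap either, and the log2 fold change was 1.11 ± 0.19 (adjusted p = 0.00152). These 3 called genes were also the 3 of the 9 whose libraries did not overlap, against 20.4% of all tested genes. The median log2 fold change of the 9 was 0.53, and that of all tested genes -0.01. These 3 calls held in each of 16 alternative fits.

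The other 6 genes did not pass the threshold between the diets in this fit. Rhbg, an ammonia transporter of the Rhesus family, measured 3.40, 3.55, 5.94 and 4.75 CPM in LFD and 6.69, 13.8, 4.63 and 6.72 CPM in HFD. HFD replicate 2 stood above the other HFD libraries, the groups overlapped, and the log2 fold change was 0.86 ± 0.33 (adjusted p = 0.0856). Without that library it was 0.44, whereas Rhbg passed with the correction for GC content and transcript length (1.03, adjusted p = 0.0301) and by DESeq2 (0.85, adjusted p = 0.0499). Of the annotated 50-base words of Rhbg, 60.4% also occur in the gene model Gm38392, which the table does not list, so its counts are uncertain, and for Glul 11.9% of these words occur in other genes. Lgr5 had a log2 fold change of 0.53 (95% interval 0.02 to 1.05, adjusted p = 0.138). Rnf43 (0.28, -0.17 to 0.74), Tbx3 (0.13, -0.36 to 0.63), Axin2 (0.08, -0.38 to 0.53) and Znrf3 (0.04, -0.25 to 0.34) had smaller differences, and for each of these 4 the interval includes 0.

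Against HFD, 0 of the 9 genes were called for the siRNA by edgeR fitted to all 4 groups without a replicate block. In this comparison 2 had an unadjusted p under 0.05, as did 4933 of all 18335 tested genes. DESeq2 called 1, Oat (adjusted p = 0.0302), as did edgeR fitted to these 2 groups alone (adjusted p = 0.00654). Glul measured 641, 1183, 1165 and 1219 CPM in HFD + siRNA, each below the lowest HFD library. The log2 fold change was -0.59 ± 0.23 (adjusted p = 0.106), and HFD + siRNA replicate 1 was far below the other 3 libraries; without it the difference was -0.43. Oat measured 1576, 1654, 2024 and 1618 CPM, each above the highest HFD library, with a log2 fold change of 0.71 ± 0.25 (adjusted p = 0.0731). These 2 enzymes of nitrogen metabolism differed from HFD in opposite directions, neither past the threshold in that fit. They were the 2 of the 9 genes without overlap, a count near the 20.6% of all tested genes. With the replicate block Glul passed (-0.66, adjusted p = 0.0165, and -0.75, adjusted p = 0.00805, with the GC correction). Slc1a2 measured 327, 386, 463 and 388 CPM and overlapped HFD, with a log2 fold change of 0.05 (95% interval -0.35 to 0.46). Axin2 measured 10.5, 12.4, 17.1 and 25.1 CPM, against 13.1, 11.8, 13.4 and 10.9 CPM in HFD. Only HFD + siRNA replicates 3 and 4 exceeded all HFD libraries, and the log2 fold change of 0.41 (-0.04 to 0.86) fell to 0.10 without replicate 4. The intervals of Lgr5 (-0.32 to 0.69), Tbx3 (-0.30 to 0.69), Rnf43 (-0.56 to 0.35), Znrf3 (-0.41 to 0.17) and Rhbg (-1.25 to 0.14) all included 0, and the median over the 9 genes was 0.05, against 0.02 over all tested genes.

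Set against LFD, the siRNA group had 2 of the 9 genes called, Oat and Slc1a2, both higher, with 8.63% of all tested genes called, 4.75% higher and 3.88% lower. The LFD libraries are the same ones as in the comparison of diets. Oat was 4.06-fold higher in HFD + siRNA than in LFD (log2 fold change 2.02 ± 0.25, adjusted p = 1.6e-04). Slc1a2 was 2.23-fold higher (1.16 ± 0.19, adjusted p = 0.00162). Glul was 1.56-fold higher and missed the threshold (0.64 ± 0.23, adjusted p = 0.0996), which it passed without HFD + siRNA replicate 1 (0.81, adjusted p = 0.0348). For Lgr5, measuring 10.8, 12.2, 9.91 and 13.8 CPM in HFD + siRNA against 4.82, 7.85, 6.90 and 8.80 CPM in LFD, the libraries did not overlap, as for 12.8% of all tested genes, but the adjusted p was 0.0791.

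The comparison of HFD + Inhib with HFD asks what the small molecule did on the same diet. Slc1a2 measured 160.2, 262, 159 and 210.4 CPM in HFD + Inhib, each below the lowest HFD library. Its log2 fold change was -0.93 ± 0.19 (adjusted p = 0.00302). Lgr5, the R-spondin receptor, measured 3.11, 2.21, 4.66 and 5.94 CPM, against 7.95, 9.50, 11.6 and 12.1 CPM in HFD. No library overlapped, and the log2 fold change was -1.36 ± 0.25 (adjusted p = 0.00122). Rnf43, a ubiquitin ligase of the cell surface, measured 14.9, 11.7, 12.0 and 21.5 CPM, against 20.7, 29.1, 25.3 and 32.6 CPM in HFD. Here HFD + Inhib replicate 4 lay above the lowest HFD library, and the log2 fold change was -0.84 ± 0.22 (adjusted p = 0.0133). Its paralog Znrf3 measured 16.7, 15.4, 14.6 and 19.4 CPM, against 22.3, 20.04, 26.6 and 27.2 CPM in HFD. These groups did not overlap, and the log2 fold change was -0.54 ± 0.14 (adjusted p = 0.0124). All 4 kept their call without each replicate in turn.

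Glul and Oat, the enzymes raised by the diet, had lower point estimates with the inhibitor that just missed the threshold. Glul measured 635, 1286, 1096 and 1036 CPM in HFD + Inhib, each below every HFD library, with a log2 fold change of -0.65 ± 0.23 (adjusted p = 0.0623). Oat measured 708, 1002, 352 and 569 CPM, so that replicate 2 overlapped HFD, with a log2 fold change of -0.68 ± 0.25 (adjusted p = 0.0675). Without HFD + Inhib replicate 2 the threshold was passed by Glul (-0.79, adjusted p = 0.0421) and by Oat (-0.96, adjusted p = 0.0105). No other fit with 1 library left out called either gene, and values reached -0.48 for Glul and -0.47 for Oat. DESeq2 also called Glul (adjusted p = 0.0303) and Oat (adjusted p = 0.0323). With the correction for GC content and length, Glul (-0.72, adjusted p = 0.0334) and Oat (-0.81, adjusted p = 0.0239) passed as well. Glul also passed with these 2 groups fitted alone (-0.66, adjusted p = 0.0321) and with the replicate block (-0.71, adjusted p = 0.00618). Rhbg had a log2 fold change of -0.86 ± 0.33 (adjusted p = 0.0835), which passed without HFD replicate 3 (-1.05, adjusted p = 0.0414). However, HFD replicate 2 measured 13.8 CPM, against 6.69, 4.63 and 6.72 CPM in the other HFD libraries. Without replicate 2 the HFD mean of Rhbg lies nearer to that of HFD + Inhib. Axin2 measured 7.91, 9.91, 11.9 and 11.2 CPM and overlapped HFD (-0.26, 95% interval -0.72 to 0.19). Tbx3 measured 56.8, 44.3, 68.3 and 74.2 CPM in HFD + Inhib, against 41.1, 53.7, 65.8 and 64.9 CPM in HFD, and was the 1 gene of the 9 with a point estimate above 0 (0.11, -0.38 to 0.61). The median log2 fold change of the 9 was -0.68, that of all tested genes 0.00, and 4 of the 9 did not overlap, against 23.3% of all tested genes.

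**Figure D2:**
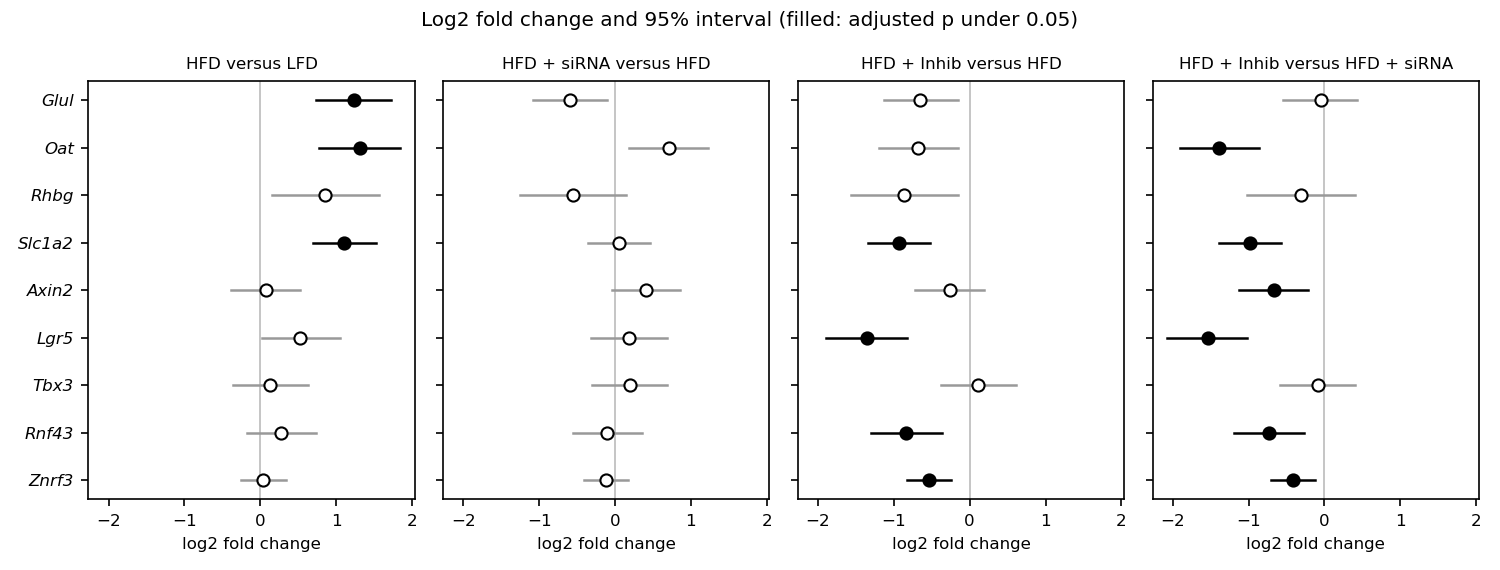
Log2 fold change (x axes) of the 9 WNT target genes (rows) in 4 comparisons (panels), with 95% intervals as lines and filled points where the adjusted p was under 0.05. Filled points lie to the right of 0 for HFD versus LFD (3 genes) and to the left for the inhibitor versus HFD (4 genes) and versus the siRNA (6 genes).

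The direct comparison of the treatments gave the most calls: 6 of the 9 genes were lower with the inhibitor than with the siRNA, where 33.8% of all tested genes were called, 17.3% higher and 16.6% lower. Lgr5 had the largest difference of the 9, 2.92-fold lower with the inhibitor (log2 fold change -1.54 ± 0.25, adjusted p = 2.3e-04). Oat was 2.61-fold lower (-1.39 ± 0.25, adjusted p = 5.6e-04), and Slc1a2 1.97-fold lower (-0.98 ± 0.19, adjusted p = 0.00111). For these 3 genes no library of either group overlapped the other, as for 32.4% of all tested genes, and the calls held in each of 16 alternative fits. Rnf43 (-0.73 ± 0.22, adjusted p = 0.0166), Axin2 (-0.67 ± 0.21, adjusted p = 0.0232) and Znrf3 (-0.42 ± 0.14, adjusted p = 0.0289) passed with overlapping libraries. Rnf43 lost its call without HFD + siRNA replicate 3 (adjusted p = 0.0603), HFD + Inhib replicate 2 (0.0559) or HFD + Inhib replicate 3 (0.0567). Axin2 lost it without HFD + siRNA replicate 3 (adjusted p = 0.0563) or 4 (0.129), or without HFD + Inhib replicate 1 (0.0748) or 2 (0.0519), or with only these 2 groups fitted (0.0653). Znrf3 lost it without HFD + siRNA replicate 1, 3 or 4 or HFD + Inhib replicate 1, 2 or 3 (adjusted p from 0.0561 to 0.106). These 3 calls also ended when log2 fold changes were corrected for GC content and transcript length (adjusted p of 0.124, 0.144 and 0.111). For Glul the log2 fold change was -0.05 (95% interval -0.54 to 0.43). All 9 point estimates were below 0, with a median of -0.67, against -0.04 over all tested genes.

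Relative to LFD, the inhibitor group had 2 of the 9 genes called, both lower, where 36.9% of all tested genes were called, 18.8% higher and 18.2% lower. These were Lgr5 (log2 fold change -0.83 ± 0.25, adjusted p = 0.0167) and Znrf3 (-0.49 ± 0.14, adjusted p = 0.0110). Lgr5 lost the call without LFD replicate 4 (adjusted p = 0.0503) or HFD + Inhib replicate 1 (adjusted p = 0.0502), or with only these 2 groups fitted (adjusted p = 0.0524), and Znrf3 lost it under the correction for GC content and length (adjusted p = 0.0747). Slc1a2, which the diet had raised, differed from LFD by 0.18 (95% interval -0.23 to 0.58). Glul (0.59 ± 0.23, adjusted p = 0.0547), Oat (0.64 ± 0.25, adjusted p = 0.0531) and Rnf43 (-0.55 ± 0.22, adjusted p = 0.0572) sat at the edge of the threshold and passed it by DESeq2. Glul passed without LFD replicate 4 (adjusted p = 0.0350) or HFD + Inhib replicate 1 (0.0134). Oat passed without LFD replicate 4 (0.0216) or HFD + Inhib replicate 3 (0.00669). Leaving out HFD + Inhib replicate 2, the highest for Oat (1002 CPM, against 708, 352 and 569), brings its mean nearer to LFD instead. Rnf43 passed without LFD replicate 2 (0.0446), LFD replicate 3 (0.0246) or HFD + Inhib replicate 4 (0.0118). The libraries of these groups overlapped in each of the 9 genes, whereas 31.2% of all tested genes had none.

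The order of the 4 groups differed among the 9 genes. Mean levels of Glul ran from HFD (1585 ± 104 CPM, SD) through HFD + siRNA (1052 ± 275) and HFD + Inhib (1013 ± 274) to LFD (674 ± 172), and of these steps only the first had no overlap. Mean levels of Oat ran from HFD + siRNA (1718 ± 207 CPM) through HFD (1052 ± 150.04) and HFD + Inhib (658 ± 272) to LFD (424 ± 118), again with the first step alone free of overlap. For Slc1a2 the 4 groups formed 2 levels, HFD + siRNA (391 ± 55.5 CPM) with HFD (377 ± 74.8) and HFD + Inhib (198 ± 48.9) with LFD (175 ± 42.8), and only the step between these pairs had no overlap. For the other 6 genes every step between neighboring groups overlapped. Lgr5, Axin2, Rnf43 and Znrf3 had their lowest mean in HFD + Inhib, at 3.98, 10.2, 15.03 and 16.5 CPM, and Rhbg had means of 4.41 CPM in both LFD and HFD + Inhib. For Tbx3 the 4 means lay between 51.5 ± 19.0 CPM in LFD and 64.5 ± 14.9 in HFD + siRNA. HFD + siRNA held the highest mean of Axin2, at 16.3 ± 6.49 CPM, a group whose libraries spanned 2.39-fold.

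Patterns over the 16 libraries were compared by the root-mean-square difference of z-scored log2 CPM, in which 0 means identical patterns, among 12408 genes. Oat and Slc1a2 resembled each other most among the 9 (0.441): Oat was the gene ranked 9 in likeness to Slc1a2, and Slc1a2 the gene ranked 10 in likeness to Oat. Rnf43 and Znrf3 differed by 0.702 and Lgr5 and Rnf43 by 0.722. The 5 genes most like Glul were Nxpe2 (0.358), Iigp1 (0.365), an interferon-inducible GTPase, Jam2 (0.438), a junctional adhesion molecule, Gm36787 (0.475) and Gm34921 (0.480). Nxpe2 had a mean of 14.1 CPM in LFD and 35.4 CPM in HFD, and Iigp1 of 207 and 323 CPM. The 5 genes most like Axin2 were Zfp46 (0.561), Daam2 (0.593), Plekhh2 (0.612), Zfhx2 (0.627) and Folr2 (0.646). With log2 CPM centered but not scaled, 2 of the 5 stayed among the nearest for Glul (Nxpe2 and Iigp1) and 4 of the 5 for Axin2.

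Of 15 other pericentral genes, all tested, the high-fat diet raised 8 and lowered 2, where 9.58% of all tested genes were called higher and 8.80% lower, and their median log2 fold change was 0.63. Slc13a3, a dicarboxylate transporter, measured 10.3, 8.74, 10.1 and 11.9 CPM in LFD and 38.3, 41.6, 29.9 and 26.9 CPM in HFD (1.74 ± 0.22, adjusted p = 1.4e-04). Lect2, a secreted hepatokine, rose by 1.62 ± 0.18 (adjusted p = 5.6e-05). Cyp27a1, a sterol hydroxylase, fell by 0.57 on the log2 scale (adjusted p = 0.00694). The siRNA raised 1 of the 15 against HFD, Cyp1a2, a drug-metabolizing cytochrome P450 (0.82 ± 0.18, adjusted p = 0.00996), a count near the 5.20% of all tested genes called higher. The inhibitor lowered 7 of the 15 against HFD and raised none, where 8.42% of all tested genes were called lower. Cyp2a5, a coumarin-hydroxylating P450, measured 56.8, 64.8, 61.6 and 163 CPM in HFD + Inhib and 391, 192, 370.4 and 701 CPM in HFD (-2.25 ± 0.44, adjusted p = 0.00202). Slc13a3 had a log2 fold change of -2.04 ± 0.22 (adjusted p = 1.0e-05), with 6.47, 10.9, 6.86 and 9.17 CPM in HFD + Inhib, which overlapped LFD. The pericentral genes did not all move this way: Cyp2e1, the ethanol-inducible P450, overlapped HFD with the inhibitor (0.26 ± 0.21, adjusted p = 0.444). Cyp2e1 was higher with the inhibitor than with the siRNA (0.91 ± 0.21, adjusted p = 0.00389) or in LFD (0.84 ± 0.21, adjusted p = 0.00588). Against LFD, HFD + Inhib had 5 of the 15 higher and 5 lower, with a median of 0.01, where 18.8% of all tested genes were called higher and 18.2% lower. Between the treatments 8 of the 15 were lower with the inhibitor and 1 higher, where 16.6% of all tested genes were called lower and 17.3% higher.

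Genes of the opposite, periportal end of the lobule were also followed. Of 13 tested, the high-fat diet lowered 2 and raised none, with a median of -0.31. In this comparison 18.4% of all tested genes were called and 8.80% were called lower, so 2 of 13 is near the share over all genes. Cyp2f2, a periportal P450, fell by 1.37 on the log2 scale, from 957 ± 80.4 to 369 ± 35.9 CPM (adjusted p = 1.7e-04). Hal, histidine ammonia-lyase, fell by 0.78 (adjusted p = 0.0120). The siRNA raised Cyp2f2 against HFD (0.65 ± 0.18, adjusted p = 0.0248) and lowered Cdh1, E-cadherin (-1.30 ± 0.21, adjusted p = 0.00182). The inhibitor lowered 4 of the 13 against HFD, among them the urea cycle gene Asl (-0.60 ± 0.14, adjusted p = 0.00698) and Pigr, the immunoglobulin transporter (-0.62 ± 0.13, adjusted p = 0.00341). Over all tested genes 8.42% were called lower in this comparison. Against LFD, HFD + Inhib had 8 of the 13 lower and none higher, where 18.2% of all tested genes were called lower.

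**Figure D3:**
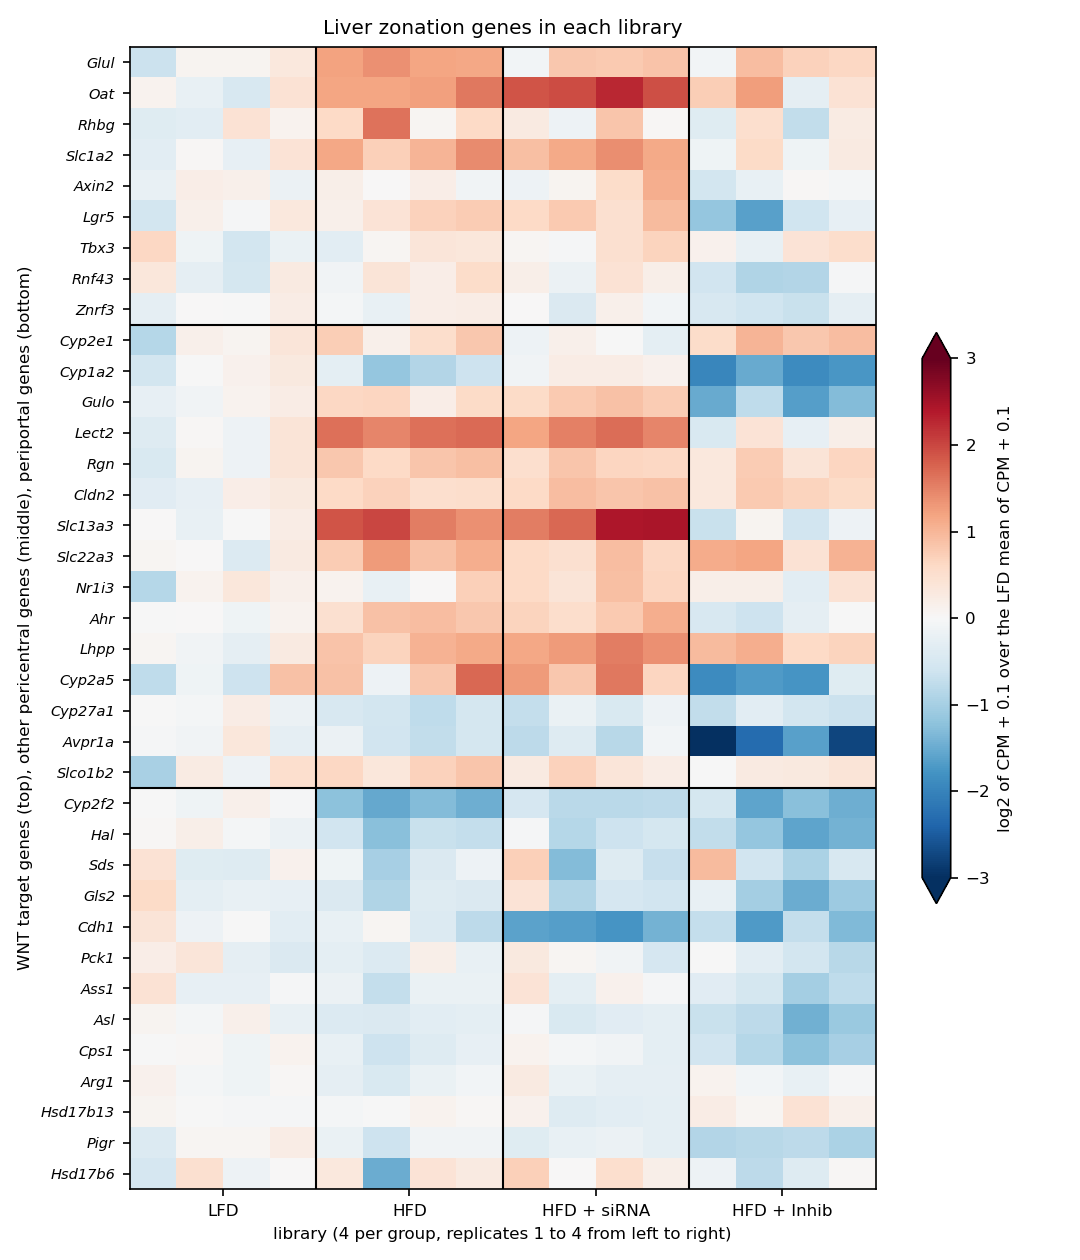
Color shows the log2 ratio of CPM + 0.1 in each library (columns, 4 per group) to the LFD mean, for the 9 WNT target genes (top), 15 other pericentral genes (middle) and 13 periportal genes (bottom). Slc13a3, Lect2, Glul, Oat and Slc1a2 are red in all 4 HFD libraries, and Avpr1a, Cyp1a2 and Gulo are blue in all 4 HFD + Inhib libraries.

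Among 10 other canonical WNT targets and feedback genes, 9 were tested. The inhibitor lowered 2 against HFD and raised 1, where 18.2% of all tested genes were called. Notum, a secreted enzyme that inactivates WNT ligands, measured 6.29, 9.25, 5.50 and 9.05 CPM in HFD + Inhib and 18.9, 16.3, 17.8 and 19.8 CPM in HFD (-1.28 ± 0.16, adjusted p = 3.5e-05). Nkd1, an inhibitor of Dishevelled, had a log2 fold change of -0.97 ± 0.18 (adjusted p = 0.00152). Myc, which many pathways induce, was higher (0.94 ± 0.31, adjusted p = 0.0441). The diet raised 1, the receptor gene Tnfrsf19 (0.87 ± 0.18, adjusted p = 0.00469), a count near the 9.58% of all tested genes called higher. Between the treatments 4 were lower with the inhibitor, among them the cell cycle gene Ccnd1 (-1.68 ± 0.34, adjusted p = 0.00132) and Notum (-1.62 ± 0.16, adjusted p = 2.0e-06), and 1, Myc, was higher, where 16.6% of all tested genes were called lower and 17.3% higher.

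Upstream of these targets, 11 of 25 genes for WNT ligands, R-spondins and ligand secretion were tested. Rspo3, the R-spondin of the central vein, measured 3.77, 5.30, 5.08 and 4.94 CPM in LFD and 7.52, 7.27, 8.54 and 6.29 CPM in HFD (0.63 ± 0.15, adjusted p = 0.00799). In HFD + Inhib it measured 4.56, 5.36, 5.05 and 5.91 CPM, below every HFD library (-0.50 ± 0.14, adjusted p = 0.0226). It was the only gene of this list that passed against HFD with the inhibitor, and 1 of 11 is near the 8.42% of all tested genes called lower. The central vein ligands Wnt2 (-0.51 ± 0.32, adjusted p = 0.304) and Wnt9b (-0.52 ± 0.31, adjusted p = 0.272) had lower point estimates with the inhibitor than in HFD. Porcn, the acyltransferase that lipidates WNT ligands, fell by 0.89 on the log2 scale on the high-fat diet (adjusted p = 0.0238), which with Rspo3 made 2 of 11 called, near the 18.4% of all tested genes. Of 14 receptor and coreceptor genes, 10 were tested, and with the inhibitor 2 were higher than in HFD, Fzd6 (0.63 ± 0.12, adjusted p = 0.00196) and Lrp6 (0.35 ± 0.08, adjusted p = 0.00400), and 2 lower, where 18.2% of all tested genes were called, Fzd8 (-1.23 ± 0.18, adjusted p = 1.4e-04) and Lrp5 (-0.60 ± 0.14, adjusted p = 0.00708).

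Inside the cell, all 16 genes of the beta-catenin machinery were tested. With the inhibitor Ctnnb1, beta-catenin itself, was lower than in HFD (-0.29 ± 0.09, adjusted p = 0.0299), Dvl1, a Dishevelled, was lower (-0.37 ± 0.12, adjusted p = 0.0405), and Gsk3b, a kinase of the destruction complex, was higher (0.37 ± 0.08, adjusted p = 0.00591). These 3 of 16 are near the 18.2% of all tested genes called in this comparison. The siRNA lowered 1, the casein kinase gene Csnk1a1 (-0.56 ± 0.08, adjusted p = 8.3e-04), which the diet had raised (0.41 ± 0.08, adjusted p = 0.00340). This count is near the 6.55% of all tested genes called lower with the siRNA. The diet raised 3 and lowered 3 of the 16, with Tcf7l1 among the lower (-0.65 ± 0.14, adjusted p = 0.00661), where 9.58% of all tested genes were called higher and 8.80% lower. Of 13 WNT antagonists 4 were tested, and 1 passed in any comparison, Frzb, higher in HFD than in LFD with overlapping libraries (0.75 ± 0.25, adjusted p = 0.0471). Over the 6 comparisons 8.63% to 36.9% of all tested genes were called.

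Around Glul, Oat and Slc1a2, 15 of 17 other genes of glutamine, glutamate, ornithine and proline metabolism were tested. Of these the diet changed 1, the siRNA 2 and the inhibitor 3 against HFD, all near or below the shares of all tested genes called (18.4%, 11.7% and 18.2%). Glud1, glutamate dehydrogenase, rose with the diet (0.44 ± 0.11, adjusted p = 0.0147) and was lower with the inhibitor than in HFD (-0.51 ± 0.11, adjusted p = 0.00484). Prodh, proline dehydrogenase, measured 51.4, 65.8, 40.6 and 65.4 CPM in HFD + Inhib and 147, 112, 122 and 159 CPM in HFD (-1.27 ± 0.17, adjusted p = 7.0e-05). Odc1, ornithine decarboxylase, was higher (0.68 ± 0.13, adjusted p = 0.00140). With the siRNA Pycrl, a pyrroline-5-carboxylate reductase, was higher than in HFD (0.54 ± 0.14, adjusted p = 0.0219).

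**Figure D4:**
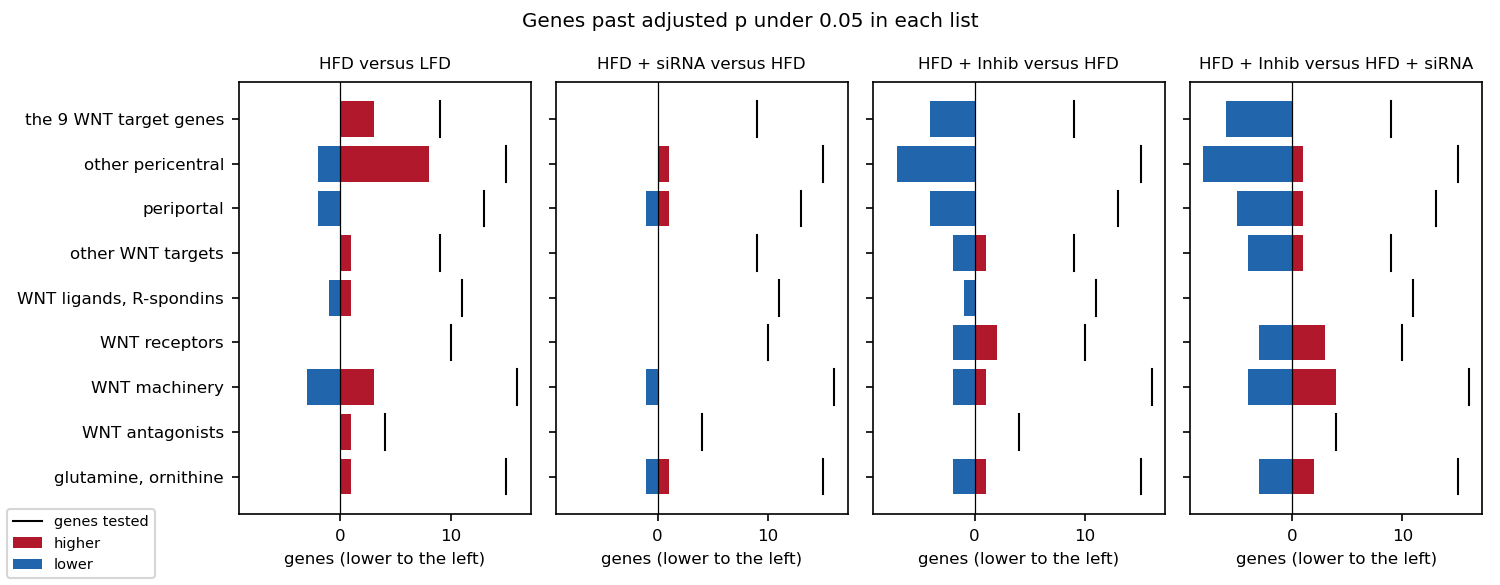
Number of genes (x axes) past adjusted p under 0.05 in each list (rows) and comparison (panels), higher to the right of 0 and lower to the left, with a black tick at the number of genes tested. The other pericentral genes show 8 higher and 2 lower for HFD versus LFD, and 7 lower and none higher for the inhibitor versus HFD.

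Markers of liver cell types were summed in each library. The 6 hepatocyte markers, with Alb (albumin) taking the most reads, summed to 42918, 40650, 41983 and 43637 CPM in HFD + Inhib and to 74349, 62947, 71379 and 73177 CPM in HFD. They summed to 81255 ± 11336 CPM (SD, n = 4) in LFD and to 74348 ± 5287 CPM in HFD + siRNA. The highest HFD + Inhib sum, 43637 CPM, was below the lowest of any other group, 62947 CPM. With the inhibitor Alb (-0.77 ± 0.13, adjusted p = 7.6e-04), Ttr (-0.93 ± 0.12, adjusted p = 5.6e-05) and Trf (-0.84 ± 0.16, adjusted p = 0.00142) were lower than in HFD, which made 3 of the 6, where 18.2% of all tested genes were called, 9.80% higher and 8.42% lower. The other 3 did not pass, Apoa1 (-0.27 ± 0.15, adjusted p = 0.247), Hnf4a (-0.21 ± 0.09, adjusted p = 0.115) and Tat (0.24 ± 0.27, adjusted p = 0.596). The 9 endothelial markers, with Stab2 taking the most reads, summed to 332 ± 18.7 CPM in HFD and 320.1 ± 10.3 in HFD + Inhib, and 1 of them passed, Lyve1, higher (0.86 ± 0.26, adjusted p = 0.0310). The 7 macrophage markers, led by Clec4f, summed to 179.9 ± 14.6 and 145 ± 29.1 CPM, and Clec4f was lower (-0.51 ± 0.12, adjusted p = 0.00756). The 6 stellate cell markers, led by Reln, summed to 286 ± 32.2 and 208 ± 18.5 CPM, with Reln, Pdgfrb and Colec11 lower. The 6 bile duct markers, led by Spp1, summed to 38.3 ± 8.70 and 37.1 ± 10.0 CPM and none passed between these groups, and the 6 lymphocyte markers, led by Ptprc, summed to 18.2 ± 2.22 and 12.7 ± 2.39 CPM, with Nkg7 lower (-1.95 ± 0.56, adjusted p = 0.0226). None of these marker genes was at 0 in all libraries, and the 3 adipocyte markers were too low to test. On the high-fat diet, where Glul, Oat and Slc1a2 rose, 1 of the 6 hepatocyte markers was called, Apoa1, lower (-0.50 ± 0.15, adjusted p = 0.0333). In the same comparison 1 of the 6 stellate cell markers was higher, Reln (0.38 ± 0.10, adjusted p = 0.0167), as were 1 of the 6 bile duct markers, Spp1 (0.62 ± 0.19, adjusted p = 0.0313), and 1 of the 6 lymphocyte markers, Ptprc (0.56 ± 0.18, adjusted p = 0.0395). Each of these counts is near the 18.4% of all tested genes called between the diets. From LFD to HFD the stellate sum went from 236 ± 22.1 to 286 ± 32.2 CPM, and Reln alone from 160 to 208 CPM. The bile duct sum went from 33.5 ± 8.42 to 38.3 ± 8.70 CPM, and Spp1 alone from 17.7 to 27.2 CPM. The lymphocyte sum went from 12.9 ± 3.44 to 18.2 ± 2.22 CPM, and Ptprc alone from 10.1 to 14.9 CPM. Median log2 fold changes of the 3 lists were 0.06, -0.24 and 0.34. Among bile duct markers Krt19 (-2.6), Krt7 (-0.76), Epcam (-0.4) and Sox9 (-0.08) had point estimates below 0 and Cftr (1.17) above, none past the threshold. The part of these markers in the results on the WNT target genes was not tested.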

How the data were processed

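Liver RNA-seq libraries from 16 mice were analysed. The authors deposited a table of expected counts per gene symbol. The submitters' processing notes name STAR, RSEM and the mouse build mm39, without versions, and the study's methods also name the HTG EdgeSeq platform. Expected counts (15.1% of values not whole) were rounded to whole numbers. Genes passing filterByExpr in edgeR 4.0.16 (minimum count 10, minimum total 15; 18335 of 50559 symbols) were TMM-normalized and fitted in 1 quasi-likelihood model of the 4 groups (R 4.3.3, limma 3.58.1), with 6 comparisons and Benjamini-Hochberg adjustment over all tested genes at 0.05. The procedure was tested on simulated counts for HFD versus LFD. It recovered 16 of 100 genes changed by 0.5 on the log2 scale and 72 of 100 changed by 1, with 6 false calls. Genes short of the threshold may therefore still differ. CPM are not per length, so levels are not compared between genes. No pair of libraries of a group agreed within sampling noise (lowest chi-square per gene 20.5 over 24 pairs). Depth limits the least expressed genes most, as Lgr5 and Rhbg had 57 to 538 counts per library.

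The 9 genes and all lists were chosen with earlier results of these data known. Within each list and comparison, the rule named up to 2 genes per direction with the largest log2 fold change among those past the threshold whose libraries did not overlap and whose mean log2 CPM reached 1. It also named the 5 genes closest to Glul and to Axin2 and, of the cell type lists, the most abundant gene and those passing the test. Gulo, Wnt2, Wnt9b, Frzb, Hnf4a and Tat, and values of named genes in further comparisons, were added after their values were seen. Some genes that the rule named are not reported here. Alternatives were RLE size factors, other filters, fits of 2 groups, a replicate block, GC content and length offsets (values for 86.5% of tested genes), DESeq2 1.42.0, stricter thresholds and each library left out. Promoter windows came from RefSeq, and gene coordinates in mm39 were not used here.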

Additional observations from a re-analysis of the deposited data

Results flagged for a closer look

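Of 40 groups of 4 libraries (10 genes in 4 groups), 2 had a library whose gap to its nearest neighbor, divided by the range of the group, exceeded Dixon's critical value at 95%, and chance gives about 1 in 20. Glul in HFD + siRNA replicate 1 measured 641 CPM, the lowest of its group, with a ratio of 0.907. Oat in HFD replicate 4 measured 1276 CPM, the highest of its group, with a ratio of 0.891.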

How the results depend on the processing

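The calls of Glul, Oat and Slc1a2 between HFD and LFD held in 16 of 16 alternative fits. So did those of Slc1a2, Lgr5, Rnf43 and Znrf3 between HFD + Inhib and HFD. Those of Oat, Slc1a2 and Lgr5 between the treatments, and of Oat and Slc1a2 between HFD + siRNA and LFD, also held in all 16. At an adjusted p under 0.01, Rnf43 and Znrf3 lost the call between HFD + Inhib and HFD. Against HFD the siRNA had 0 of the 9 genes called, and 1 with only 2 groups fitted, with the replicate block, with the block and GC correction, or by DESeq2. Between HFD and LFD 3 were called, and 4 (Rhbg added) with the GC correction, alone or with the block, or by DESeq2. The inhibitor had 4 called against HFD, 5 (Glul added) with only 2 groups or the block, 6 (Glul and Oat added) with the GC correction, alone or with the block, or by DESeq2, 4 to 6 with 1 library left out, and 2 at an adjusted p under 0.01. Between the treatments 6 were called, and 3 with the GC correction, alone or with the block, or at an adjusted p under 0.01. Leaving out 1 library gave 3 to 6. Between HFD + siRNA and LFD 2 were called, and 4 with the block, alone or with the GC correction. Between HFD + Inhib and LFD 2 were called, 4 without a filter, with at least 10 counts in every library or with the block, 5 by DESeq2, 1 with only 2 groups, with the GC correction or when the log2 fold change also had to reach 0.5 in size, and 0 at an adjusted p under 0.01 by edgeR. In that comparison 5 had an unadjusted p under 0.05, as did 8514 of all 18335 tested genes. The cause of these shifts was not tested.

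Log2 fold changes that changed sign were all small and uncalled. Khk between HFD and LFD was 0.01 with at least 10 counts, 0.21 with the GC correction and 0.22 with the block and GC correction. Between the treatments Tbx3 was 0.14 and 0.13 under the latter 2. Between HFD + Inhib and LFD, Rhbg was 0.01, 0.23 and 0.21 under these 3, and Axin2 was 0.07 and 0.05 under the GC correction without and with the block. With 1 library left out, values between HFD and LFD ranged from -0.01 to 0.42 (Tbx3), from -0.03 to 0.14 (Znrf3) and from -0.12 to 0.15 (Khk). Slc1a2 ranged from -0.06 to 0.16 between HFD + siRNA and HFD, Tbx3 from -0.01 to 0.23 between HFD + Inhib and HFD, Glul from -0.22 to 0.13 and Tbx3 from -0.19 to 0.07 between the treatments, Znrf3 from -0.17 to 0.01 between HFD + siRNA and LFD, and Rhbg from -0.23 to 0.18 between HFD + Inhib and LFD.

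Deviations of libraries with the same replicate number correlated between -0.132 and 0.336, so the numbers were not taken to pair the libraries. With the replicate block Glul passed between HFD + siRNA and HFD (-0.66, adjusted p = 0.0165, and -0.75, adjusted p = 0.00805, with the GC correction), HFD + Inhib and HFD (-0.71), HFD + siRNA and LFD (0.64) and HFD + Inhib and LFD (0.58). Across genes, log2 fold changes had a Spearman correlation with GC content of -0.509 (HFD versus LFD), 0.49 (HFD + siRNA versus HFD), -0.275 (HFD + Inhib versus HFD) and -0.526 (between the treatments). Against LFD this correlation was -0.0797 for HFD + siRNA and -0.547 for HFD + Inhib. Over all tested genes, 1582 were called between HFD + siRNA and LFD, but 808 with only these groups fitted. Leaving out 1 library gave 965 (without HFD + siRNA replicate 3) to 1456 there, 1100 (without HFD replicate 3) to 1981 between HFD + siRNA and HFD, where all libraries gave 2154, and 2001 (without LFD replicate 3) to 3691 between HFD and LFD, where all gave 3370.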
